A study of Homo sapiens with 2 samples.

Results

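Hypoxia-responsive genes were examined in Ca9-22 cells, a line of oral squamous cell carcinoma (OSCC), carrying a DLEU1 vector or a control vector. The members were HIF1A, EPAS1, EGLN3, CA9, CA12, ADM, VEGFA, NDRG1, BNIP3 and ANKRD37, which are 10 of the 43317 gene names on the array. They were chosen by name, as every probe other than a control spot whose gene name was that of a hypoxia-inducible factor (HIF) gene or a known HIF target on this list, and they had 12 probes. The names were picked with earlier results of these data known. In the DLEU1 group the cells carried a lentiviral vector with the full-length cDNA of DLEU1, a long noncoding RNA, and in the control group the same kind of vector without it. Both groups were kept in the same serum-containing medium, were selected with blasticidin (6 mg/ml as the labels give it) for 2 weeks, and were of the same line. The labels named no culture under low oxygen for either group. Whether the infected cells were a clone or a pooled population is not given in the sources used here. The groups are called DLEU1 cells and control cells below. Each gave total RNA for 1 Agilent array of a single dye, Cy3. Without a replicate no test and no p-value could be given, and the precision of all values is limited by this number of arrays.

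HIF is a transcription factor made of an oxygen-labile alpha subunit, such as HIF1A or EPAS1, and the stable partner ARNT. When oxygen is plentiful, prolyl hydroxylases of the EGLN family mark the alpha subunits for VHL, which leads them to degradation, so that HIF activity is set largely at the protein level. When oxygen falls, the alpha subunits persist, bind DNA at a short core motif and raise the transcription of genes for glycolysis, pH control, blood vessel growth, matrix remodelling and mitochondrial turnover, and these genes are often active in hypoxic parts of squamous carcinomas. Arrays measure RNA only, and in bulk RNA fewer cells of a type and less RNA per cell cannot be told apart.

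The core of the HIF binding motif is ACGTG or GCGTG, which reads CACGT or CACGC when it lies on the opposite strand. Upstream sequences of a member higher with the DLEU1 vector (ADM), of both members lower by more than the technical error (BNIP3, ANKRD37) and of CA9, which was not detected, are shown, since they give the letters that these targets present to the factor. Each is the 250 bases before the RefSeq start site, 5′ to 3′ along the gene (GRCh38.p14), with the core motif in capitals on either strand. ADM lies on the plus strand at chr11:10304823-10305072, BNIP3 on the minus strand at chr10:131981924-131982173, ANKRD37 on the plus strand at chr4:185396591-185396840 and CA9 on the plus strand at chr9:35673678-35673927.
ADM: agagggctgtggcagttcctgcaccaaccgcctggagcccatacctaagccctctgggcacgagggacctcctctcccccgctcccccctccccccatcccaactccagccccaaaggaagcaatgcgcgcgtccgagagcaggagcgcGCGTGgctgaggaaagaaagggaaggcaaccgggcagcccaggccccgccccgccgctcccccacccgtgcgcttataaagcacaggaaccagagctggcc
BNIP3: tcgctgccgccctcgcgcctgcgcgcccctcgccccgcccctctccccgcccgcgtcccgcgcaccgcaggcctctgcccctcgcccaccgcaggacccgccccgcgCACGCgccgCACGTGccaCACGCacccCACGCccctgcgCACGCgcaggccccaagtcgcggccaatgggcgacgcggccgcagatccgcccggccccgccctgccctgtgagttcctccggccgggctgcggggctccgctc
ANKRD37: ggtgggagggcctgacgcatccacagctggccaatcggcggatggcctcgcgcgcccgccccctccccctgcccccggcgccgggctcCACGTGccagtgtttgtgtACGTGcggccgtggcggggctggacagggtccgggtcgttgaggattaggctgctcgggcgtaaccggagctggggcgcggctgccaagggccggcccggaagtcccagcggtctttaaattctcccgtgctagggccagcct
CA9: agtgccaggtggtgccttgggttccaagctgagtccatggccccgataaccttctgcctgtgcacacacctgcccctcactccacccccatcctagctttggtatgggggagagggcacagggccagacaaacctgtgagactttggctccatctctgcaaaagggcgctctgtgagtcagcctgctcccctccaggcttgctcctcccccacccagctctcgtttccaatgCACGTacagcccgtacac

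In these sequences the ADM motif is a single GCGTG, 101 bases before the start. BNIP3 holds CACGC at 143, 125, 116 and 104 bases before the start, and CACGT and ACGTG in the same CACGTG at 134 and 133. ANKRD37 holds such a CACGTG (162 and 161 bases before the start) and a separate ACGTG at 143, and CA9 holds CACGT 18 bases before the start. CACGTG is its own reverse complement and is also the E-box of other transcription factors, so it was counted on both strands. Among the other members, EPAS1 holds GCGTG 117 bases before its start, CA12 holds CACGC at 234 and HIF1A holds GCGTG at 204 in 1 of its 2 listed promoters. EGLN3 has no match in its window, and VEGFA and NDRG1 were not among the promoters used.

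Over windows of 300 bases (250 before the start and 50 after it), 7 of the 8 members with a promoter (87.5%) held ACGTG or GCGTG on either strand. The motif is short, and 52.4% of all 27305 genes with a promoter held it too. The stricter ACGTG was present for 3 of the 8 members (37.5%) and for 24.9% of all genes. Members higher with the DLEU1 vector and members lower with it both included genes with a match, and a match is a description of the letters only.

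The probes themselves decide which piece of a transcript was measured. All were 60 bases long. The sequences of the HIF1A, VEGFA and CA9 probes below are shown because HIF1A has a second probe that gave another direction, and because the VEGFA and CA9 probes have spans on the genome (412 and 1388 bases) longer than the probe, as across a splice junction. On hg19 they lie at chr14:62211472-62211531, chr6:43746223-43746634 and chr9:35677817-35679204, on the plus strand.
HIF1A second probe: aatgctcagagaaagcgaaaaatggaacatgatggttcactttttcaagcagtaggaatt
VEGFA first probe: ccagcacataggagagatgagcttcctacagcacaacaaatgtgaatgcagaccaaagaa
CA9 probe: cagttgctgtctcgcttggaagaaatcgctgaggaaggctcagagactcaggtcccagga

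The probe of DLEU1 itself read 2178 in control cells and 14156 in DLEU1 cells, a log2 difference of 2.74 (6.67-fold), so that each array matched its label. Signals are processed intensities in arbitrary units, with background subtracted by the scanner software. A level is the log2 of the signal minus the 75th percentile of that array, and a difference is the level with the DLEU1 vector minus that with the control vector. A probe counted as detected where it was well above background, which held for 20246 genes on both arrays. The median difference of these genes was -0.07, and 9.18% of them were higher in DLEU1 cells by 2-fold or more, against 9.78% lower by as much. Both arrays lay on 1 slide and in 1 scan. A strip of the DLEU1 vector array was dim, with 40.9% of lit spots at least 2-fold lower against 12.7% outside it, and of the members it touched a single HIF1A spot.

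The RNA was checked against markers of cell types. Those of squamous epithelium, the tissue the line comes from, were detected on both arrays for 6 of 6 genes. Their summed signal was 88175 in control cells and 208240.1 in DLEU1 cells, with 4 of them higher and 2 lower. The differences were 2.10 for KRT5 and 2.85 for KRT14, the keratins of basal keratinocytes, 0.96 for TP63, 1.04 for CDH1, -0.78 for EPCAM and -0.09 for ITGB4. Of 6 fibroblast markers, COL1A1 differed by 3.99, PDGFRB was dim, LUM was detected in DLEU1 cells only, and COL1A2, COL3A1 and DCN were not detected, and the summed signal of the detected ones was 362.5 in control cells and 5268 in DLEU1 cells. The endothelial marker VWF differed by 3.70 on its brighter probe and by -0.07 on the other probe detected, and CDH5 differed by -0.59, while PECAM1, TEK and CLDN5 were not detected (summed signal 103 and 645). Of 5 leukocyte markers 4 were detected, with differences from -1.60 (CD14) to 0.45 (PTPRC), and CD3E was not (summed signal 351 and 277). The part of these differences in the members' values was not tested.

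The members did not move as a block. NDRG1 was 5.24-fold higher with the DLEU1 vector and BNIP3 was 3.22-fold lower, while ADM, EPAS1 and HIF1A were higher by less than 2-fold, ANKRD37 was lower by less than 2-fold, and VEGFA and EGLN3 differed by less than the error of the scanner software. The carbonic anhydrases CA9 and CA12 were not well above background on either array. Of the 8 members detected on both arrays, 1 was past 2-fold upwards (9.18% of all genes), 1 past 2-fold downwards (9.78%) and 6 were within 2-fold. Their median difference was 0.29, beside -0.07 over all genes detected on both arrays.

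**Figure D1:**
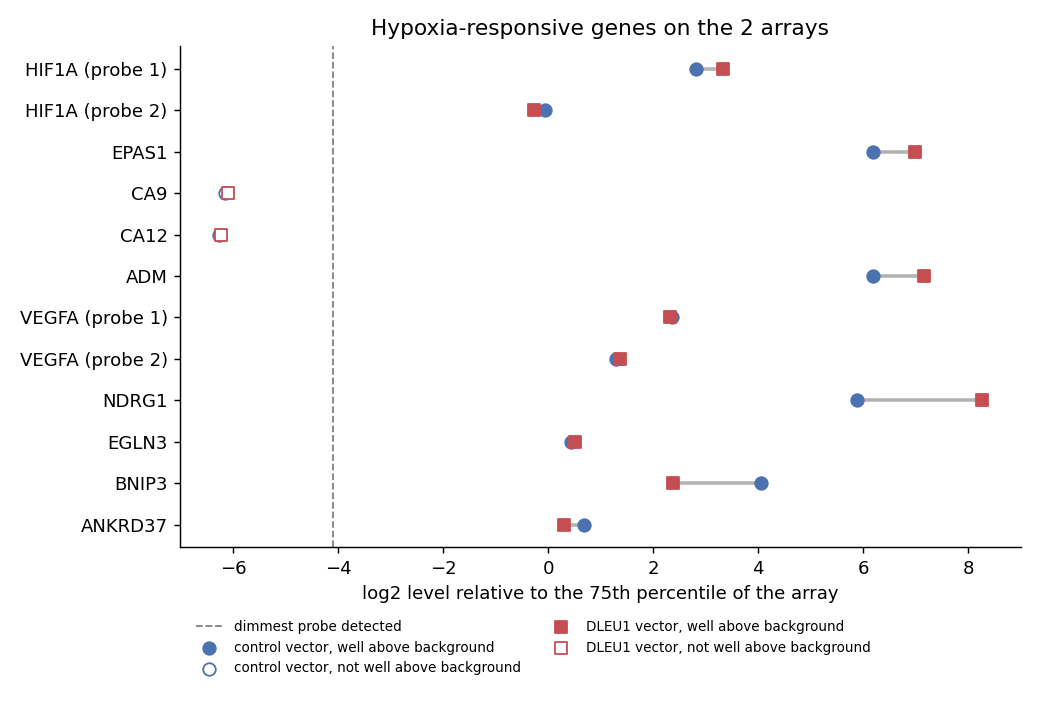
Levels of the 12 member probes on the 2 arrays, as log2 signal relative to the 75th percentile of the array (horizontal axis), with circles for the control vector and squares for the DLEU1 vector. The widest gaps are those of NDRG1 (5.88 to 8.27) and BNIP3 (4.06 to 2.38), and the open symbols of CA9 and CA12 lie below the dimmest probe detected (dashed line).

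Among the genes that encode the factor, EPAS1 encodes the alpha subunit also called HIF-2 alpha, best known from endothelium and from clear cell kidney cancer. The signal of its probe (chr2:46613666-46613725, hg19, plus strand) was 17620.5 in control cells and 30057 in DLEU1 cells. The levels were 6.18 and 6.99, a difference of 0.81 (1.75-fold). The software error of this difference was 0.20 on the log2 scale, so the difference was larger than that error. Quantile normalization and loess put EPAS1 past 2-fold, at 1.01 and 1.09, and scaling on the spike-in probes put it at 0.35.

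HIF1A, which encodes the alpha subunit found in nearly all cells, was measured by 2 probes that did not give the same direction. The first probe (chr14:62214845-62214904, hg19, plus strand) begins at base 3799 of the transcript and was printed in 10 spots, of which 8 were used on each array. Its signal was 1719 in control cells and 2361 in DLEU1 cells, levels of 2.83 and 3.32, and the difference was 0.50 (1.41-fold). The 7 spots kept on both arrays all gave higher signals with the DLEU1 vector, with differences from 0.40 to 0.64 and an SD over spots of 0.0714. Their signals did not overlap, since those of control cells ended at 1845 and those of DLEU1 cells began at 2275. These spots share the 2 RNA extracts, so they measure the array and not the cultures. Another 3 spots had been marked as outliers by the software on at least 1 array. The spot at row 72 and column 39, inside the dim strip, read 1666 and 414, a difference of -1.97, and the mean over all 10 spots was 0.25.

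The second HIF1A probe, whose letters are given above, begins at base 2546 of the same transcript. Its signal was 231 in control cells and 197 in DLEU1 cells, levels of -0.07 and -0.26. The difference of -0.19 was smaller than its software error of 0.21. The direction of HIF1A therefore rests on the first probe, and with scaling on the spike-in probes that probe gave 0.04.

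**Figure D2:**
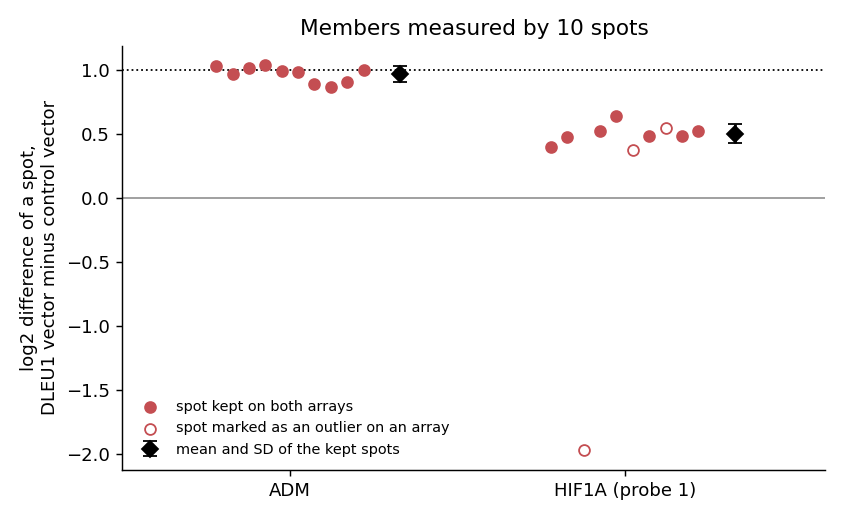
Log2 difference of each spot (vertical axis, DLEU1 vector minus control vector) for the ADM probe and the first HIF1A probe, which had 10 spots each, with the mean and SD over the spots kept. The ADM spots lie between 0.87 and 1.04, the kept HIF1A spots between 0.40 and 0.64, and 1 open HIF1A spot in the dim strip lies at -1.97.

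EGLN3 is an oxygen-sensing prolyl hydroxylase whose own transcription is raised by HIF. Its probe (chr14:34393422-34393481, hg19, minus strand) read 327 in control cells and 338 in DLEU1 cells. The levels were 0.43 and 0.52, and the difference of 0.08 was within the software error of 0.21. Its sign turned under scaling by the median (-0.03) and on the spike-in probes (-0.37).

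CA9 and CA12 encode carbonic anhydrases of the cell surface, and CA9 is a widely used marker of tumour hypoxia. The CA9 probe printed above read 3.41 in control cells and 3.44 in DLEU1 cells. The CA12 probe (chr15:63616499-63616558, hg19, minus strand) read 3.12 and 3.15. Neither was well above background on either array, so neither gene has a fold change here, and the readings only bound the signal.

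ADM encodes adrenomedullin, a secreted peptide that widens blood vessels. Its probe (chr11:10328780-10328839, hg19, plus strand) was printed in 10 spots, none of them an outlier, and had a mean signal of 17717 in control cells and 33770.2 in DLEU1 cells. Single spots read 16610 to 18579 in control cells and 31598 to 35724 in DLEU1 cells. The spots of the 2 arrays were therefore apart, and they share the 2 RNA extracts, so they measure the array and not the cultures. The levels were 6.19 and 7.16, a difference of 0.97 (1.96-fold) with an SD over spots of 0.0601. ADM lay just under the 2-fold threshold, with 3 of 10 spots past it, and 90.4% of all genes detected on both arrays had a lower difference. Scaling by the 75th percentile over detected probes (1.08), quantile normalization (1.18) and loess (1.25) put it past 2-fold, and scaling on the spike-in probes gave 0.51.

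VEGFA encodes the main growth factor of blood vessels. Its first probe read 1245 in control cells and 1187 in DLEU1 cells, levels of 2.36 and 2.33 and a difference of -0.03. Its second probe (chr6:43753511-43753570, hg19, plus strand) read 594 and 612, a difference of 0.08. Both were smaller than the software error of 0.20, and they differed in sign. The sign of the gene's value, taken from the first probe, turned in 4 alternatives, and over all alternatives it ran from -0.49 (spike-in scaling) to 0.11 (loess).

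NDRG1 encodes a stress-responsive cytoplasmic protein that is a HIF target and is also raised during cell differentiation. Its probe (chr8:134249719-134249778, hg19, minus strand) read 14282 in control cells and 72923 in DLEU1 cells. The levels were 5.88 and 8.27, and the difference of 2.39 (5.24-fold) was far above the software error of 0.20. Of all genes detected on both arrays, 98.7% had a lower difference and 256 a higher one. It stayed past 2-fold in all alternatives that gave it a value, between 1.93 (spike-in scaling) and 2.68 (loess). The probe had a single spot, so no spread over spots exists for it.

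BNIP3 encodes a mitochondrial membrane protein that promotes mitophagy, and it went the other way. Its probe (chr10:133781881-133781940, hg19, minus strand) read 4046 in control cells and 1226 in DLEU1 cells. The levels were 4.06 and 2.38, a difference of -1.69 (3.22-fold lower), and 2.92% of all genes had a lower difference. The value lay between -2.14 (spike-in scaling) and -1.5 (loess) and kept its direction and its place past 2-fold. The RefSeq gene table lists 46 pseudogenes named after BNIP3, and whether their transcripts hybridise to this single-spot probe was not tested.

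BNIP3L, which encodes the related mitophagy receptor and belongs to the wider target list, was measured by 3 detected probes. It lies outside the naming rule and was chosen after its values were seen. The differences were 0.50, 1.48 and 0.96, all opposite in sign to that of BNIP3.

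ANKRD37 encodes a small ankyrin repeat protein that is a direct HIF target. Its probe (chr4:186321293-186321352, hg19, plus strand) read 387 in control cells and 289.9 in DLEU1 cells. The levels were 0.67 and 0.30, and the difference of -0.38 (1.30-fold lower) was larger than the software error of 0.20. It stayed negative and within 2-fold in the alternatives, from -0.84 (spike-in scaling) to -0.27 (75th percentile over detected probes).

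**Figure D3:**
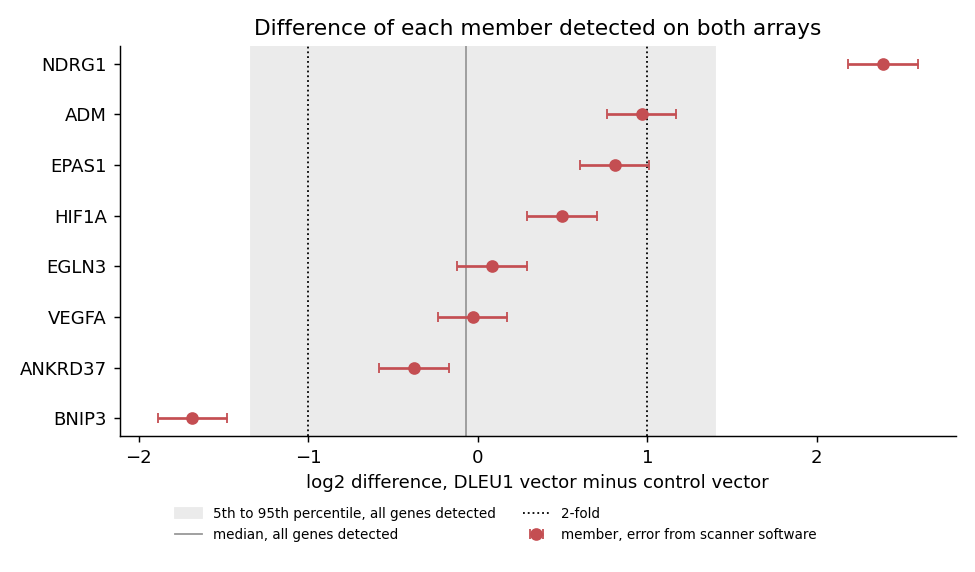
Log2 difference (horizontal axis, DLEU1 vector minus control vector) of the 8 members detected on both arrays, with bars for the error given by the scanner software for a spot, beside the 5th to 95th percentile of all genes detected (grey band, -1.34 to 1.40). NDRG1 at 2.39 and BNIP3 at -1.69 lie outside the band on opposite sides, and the bars of EGLN3 and VEGFA cross 0.

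In all, 6 of the 8 detected members differed by more than the software error, 4 of them upwards and 2 downwards. That error was nearly the same for all member probes (0.20 to 0.21), so it acts as a fixed cut and not as a spread measured for each gene. The SD over spots was 0.0601 for ADM and 0.0714 for HIF1A. No replicate exists to set the differences against the variation between cultures. Among the 8 detected members 5 were higher and 3 lower, beside 45.8% higher and 54.2% lower over all genes. Of the members, EGLN3 and VEGFA changed sign with the processing. Under median or spike-in scaling 4 members were higher and 4 lower. Quantile normalization, loess and the 75th percentile over detected probes each gave 6 and 2. Scaling on the spike-in probes shifted the median of all genes by -0.46. The members' median then became -0.17, and its distance of 0.36 from the median of all genes was unaltered by construction, since such a scaling moves each gene by the same amount. With outlier spots kept, this distance was 0.24. Without a filter on dim probes the members' median lay 0.14, and with the mean of a gene's probes 0.19, above -0.07. That is the all-gene median of the unaltered processing, so a distance within these 2 settings is not given.

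**Figure D4:**
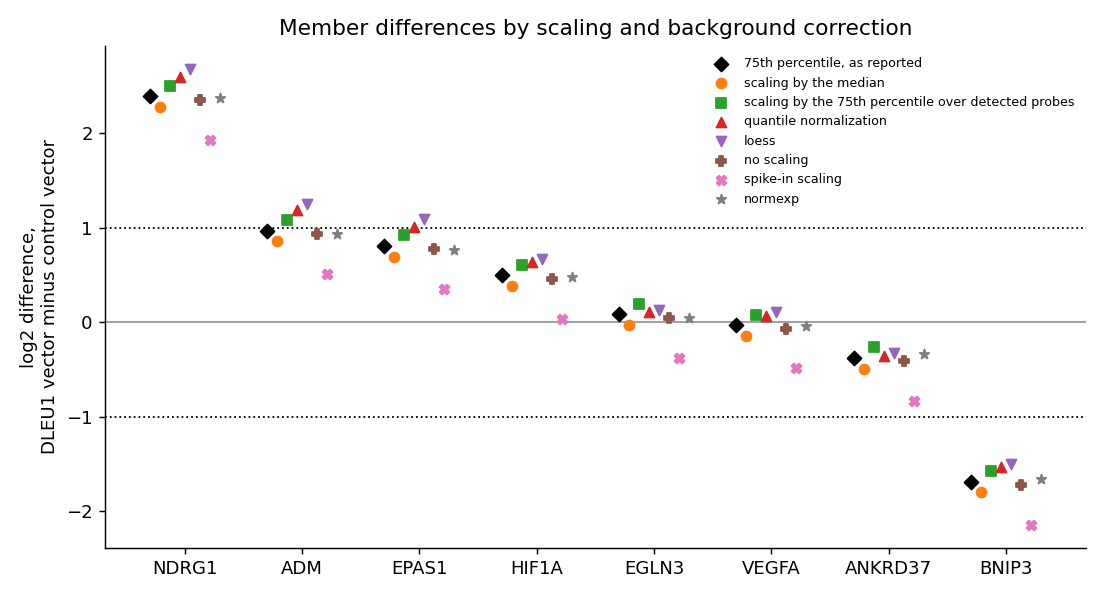
Log2 difference (vertical axis, DLEU1 vector minus control vector) of the 8 members detected on both arrays under 8 ways of scaling or background correction, with dotted lines at 2-fold. NDRG1 stays between 1.93 and 2.68 and BNIP3 between -2.14 and -1.5, ADM crosses the upper line, and EGLN3 and VEGFA lie on both sides of 0.

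The other genes of the pathway were taken from lists, which were also picked with earlier results of these data known. The list of regulators held 15 genes that build, modify or degrade HIF, all detected on both arrays, and 12 of them were lower in DLEU1 cells and 3 higher (from 11 and 4 to 13 and 2 under other scalings). Over all genes 54.2% were lower and 45.8% higher, and these shares were not counted under the other scalings. The regulators' median was -0.54 beside -0.07 for all genes. Past 2-fold were 1 upwards (9.18% of all genes) and 0 downwards (9.78%). The gene past 2-fold was HIF3A, which encodes another alpha subunit with splice forms that restrain HIF, at 1338 and 2644 (1.02). Of its 3 probes, 1 was detected on both arrays and gave this value. HIF3A lost its place past 2-fold under 4 alternatives, with a lowest value of 0.56 on the spike-in probes.

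ARNT, the partner of the alpha subunits, read 219.8 and 263 (difference 0.30), and on the spike-in scaling its sign turned (-0.16). The prolyl hydroxylase EGLN1 read 1266 in control cells and 802 in DLEU1 cells, a difference of -0.62. EGLN2, of the same family, read 579 and 308, a difference of -0.87, so that both were lower while their relative EGLN3, a member, differed by 0.08. VHL, the subunit of the ubiquitin ligase that recognises hydroxylated HIF, differed by -0.36, and HIF1AN, an asparagine hydroxylase that blocks HIF activity, by -0.26. Of the VHL ligase genes, ELOB, ELOC, CUL2 and RBX1 were all lower, from -0.78 (ELOC) to -0.54 (RBX1). The coactivators CREBBP (-0.71) and EP300 (-0.38) were lower too, so lower values were not limited to genes that restrain HIF. CITED2, a transcriptional modulator that competes for EP300, differed by 0.83, and by 1.28 on its dimmer second probe. ARNT2 differed by -0.91. The 4 ligase genes, CREBBP, EP300, CITED2 and ARNT2 were named after their values were seen.

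The wider list held 49 hypoxia targets other than the members, of which 40 were detected on both arrays. Of these, 22 were higher and 18 lower in DLEU1 cells, and their median was 0.17. Over all genes 45.8% were higher and 54.2% lower, with a median of -0.07. The list held 25 higher and 15 lower with loess, and 14 and 26 on the spike-in scaling. The median of all genes was then 0.02 and -0.53, and the shares of all genes in each direction under these scalings were not counted. Among the 40 targets a 2-fold difference was reached by 7 upwards (9.18% of all genes) and 5 downwards (9.78%). PLIN2, a lipid droplet protein, was detected with the DLEU1 vector only, at 14.8 in control cells and 22.8 in DLEU1 cells. Its bound was 1.58-fold higher, from 1 of its 3 probes, taken as that with the largest bound. COX4I2, a subunit of cytochrome oxidase, was detected with the control vector only, at 17.5 and 10.3. Its bound was 1.19-fold lower with the DLEU1 vector. Both genes lay near the detection limit, and the bounds do not include measurement error. Another 7 were detected on neither array, namely SLC2A3, LOX, NDUFA4L2, VLDLR, FLT1, CXCR4 and EPO.

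**Figure D5:**
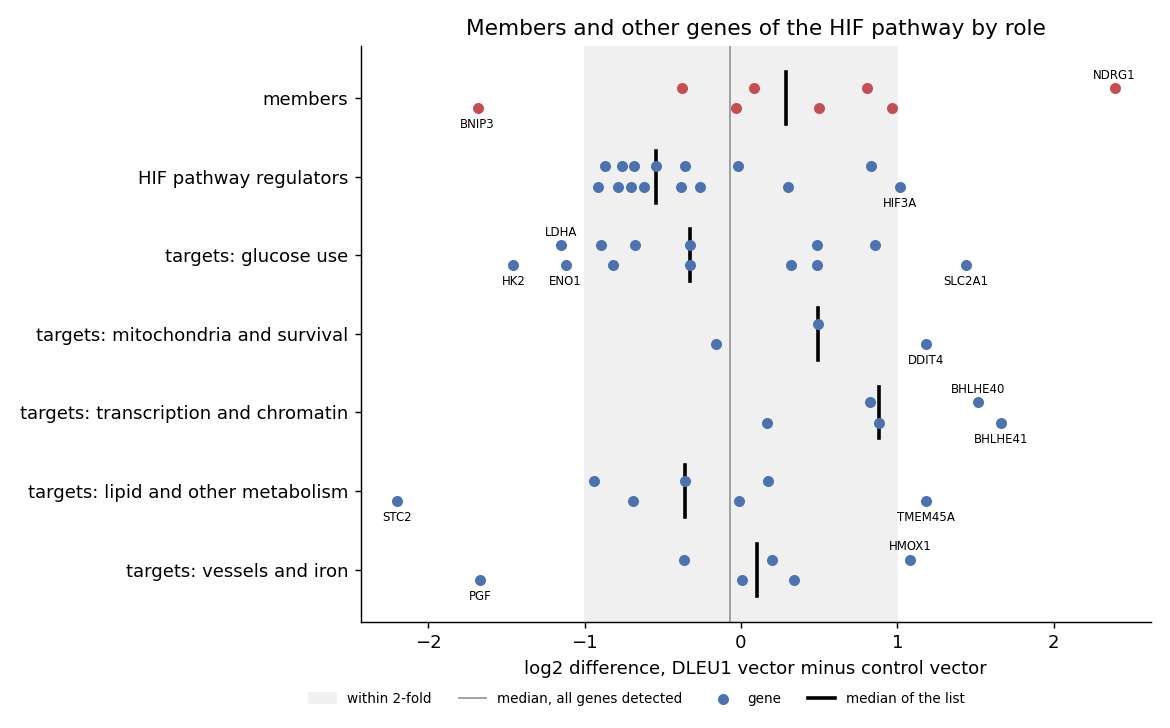
Log2 difference (horizontal axis, DLEU1 vector minus control vector) of the genes detected on both arrays, by list (the matrix group is not drawn), with the median of each list as a black bar and the median of all genes, -0.07, as a grey line. Members lie on both sides of 0, and regulators lie mostly to the left (12 of 15). The genes of glucose use spread from -1.46 (HK2) to 1.44 (SLC2A1), and the 5 genes of transcription and chromatin all lie to the right. Over all genes 54.2% were lower and 45.8% higher.

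The targets of glucose use were split. SLC2A1, the main glucose transporter, read 8378 in control cells and 22118 in DLEU1 cells (1.44), while 3 enzymes that act on glucose after its uptake were lower by 2-fold or more. HK2, a hexokinase, read 1875 and 666 (-1.46), from the 1 of its 2 probes that was detected on both arrays. LDHA, which makes lactate, read 42896 and 18839 (-1.15, the same from its second probe), and ENO1, an enolase, read 32225 and 14425 (-1.12). Of the 13 genes detected, 5 were higher and 8 lower (4 and 9 on the spike-in scaling), and the median was -0.33. Over all genes 45.8% were higher and 54.2% lower, with a median of -0.07. LDHA and ENO1 came under 2-fold with quantile normalization and loess, and SLC2A1 on the spike-in scaling (0.98).

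The remaining groups were small, and of all genes 45.8% were higher and 54.2% lower. The targets of transcription and chromatin were all higher, 5 of 5, with a median of 0.88, except that KDM3A was lower on the spike-in scaling (-0.30). They included the repressors BHLHE41 (288 to 890, a difference of 1.66) and BHLHE40 (771 to 2152, a difference of 1.52). In the group of matrix genes 4 of 6 were higher (2 on the spike-in scaling). DDIT4, an inhibitor of mTOR signalling in the group of mitochondria and survival, read 16381 and 36245 (1.18), in a group with 2 of 3 higher (3 with loess or quantile normalization).

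Set beside the same 45.8% and 54.2% of all genes, the next 2 groups went in different directions. In the group of lipid and other metabolism, 2 were higher and 5 lower (from 3 and 4 to 1 and 6 under other scalings). The highest was TMEM45A, a membrane protein, at 1944 and 4293 (1.18). The lowest was STC2, a secreted glycoprotein, at 104.8 and 22.2 (-2.20), a dim probe whose difference was -0.88 with normexp background correction. ERO1A, an oxidase of the endoplasmic reticulum, read 1654 and 841 (-0.94). In the group of vessels and iron, 4 were higher and 2 lower (1 and 5 on the spike-in scaling), and PGF, placental growth factor, read 1847 and 566 (-1.67). HMOX1, heme oxygenase, read 2534 and 5234 (1.08) and was also past 2-fold, a gene outside the naming rule that was chosen after its value was seen. On the spike-in scaling DDIT4, TMEM45A and HMOX1 came under 2-fold (0.72, 0.72 and 0.63), as HMOX1 did under median scaling (0.97).

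The share of genes with ACGTG or GCGTG in their 300-base promoter window was 94.9% of the wider targets (37 of 39 with a promoter) and 66.7% of the regulators (8 of 12), beside 87.5% of the members and 52.4% of all genes. No low-oxygen sample was among the arrays, so the size of the hypoxic response of these genes in Ca9-22 cells was not measured here.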

How the data were processed

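Total RNA (100 ng per the labels) of Ca9-22 cells with a control vector or a DLEU1 vector was measured on 1 array each. The deposited intensity values were made by the authors with Agilent Feature Extraction (10.7.3.1 per the file headers), which subtracted the background and removed a spatial trend. The series value table held the same values, rounded (at most 0.497% apart). Positions were on hg19 as the files give them.

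Control spots and spots marked as outliers (84 and 103) were left out, no spot was saturated (0), and the log2 signals of the spots of a probe were averaged. The 75th percentile of each array (7.92 and 7.88) was subtracted. A gene took its brightest probe detected on both arrays. Differences were called at 2-fold. A probe detected on 1 array only got a bound against its own signal on the dim array or the lowest signal detected there, whichever was higher. The software error came from the error column of the deposited files, and replicated spots gave an SD of 0.0800 over 282 probes. The computations were tested on simulated data.

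The members and gene lists were chosen with earlier results of these data known. Named were the members, DLEU1, the 6 highest and 6 lowest wider targets, those detected on 1 array only, and regulators past 2-fold with ARNT, VHL, HIF1AN, EGLN1 and EGLN2. Another gene under this rule is not reported here. Promoters came from RefSeq (GRCh38.p14), and 8 of 10 members had an entry. Python 3.11.15, numpy 2.4.6, pandas 2.3.3, matplotlib 3.10.9, R 4.3.3 and limma 3.58.1 were used, the last for normexp (offset 50), quantile and loess (span 0.3) alternatives.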

Additional observations from a re-analysis of the deposited data

How the results depend on the processing

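No replicate was left out, since each group had 1 array. No paired analysis was possible, because 1 array per group leaves only 1 pair. Dim probes near the detection limit set the least reliable values. Of 104 member values under alternatives, 38 moved by more than the technical spread and 6 changed sign (VEGFA 4, EGLN3 2). Keeping the outlier spots was chosen after seeing the data.

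For short, detected-probe scaling is that by the 75th percentile over detected probes. Of all 20246 genes detected, 2209 were at least 2-fold higher with detected-probe scaling, 1948 with quantile normalization and 2094 with loess. At a 1.5-fold threshold 3731 were. The number of members at least 2-fold higher was 2 with detected-probe scaling and 3 with quantile normalization, loess or a 1.5-fold threshold. Their median was 0.18 with median scaling, 0.40 with detected-probe scaling, 0.37 with quantile normalization, 0.40 with loess, -0.17 on the spike-in probes, 0.068 without a filter on dim probes, 0.12 with the mean of a gene's probes and 0.17 with outlier spots kept.

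The median of the wider targets was 0.053 with median scaling, 0.28 with detected-probe scaling, -0.29 on the spike-in probes and 0.047 without a filter. Wider targets at least 2-fold higher numbered 3 on the spike-in probes and 2 at a 3-fold threshold, beside 931 and 774 of all 20246 genes. Wider targets at least 2-fold lower numbered 3 with quantile normalization or loess, 10 on the spike-in probes or at a 1.5-fold threshold and 2 at a 3-fold threshold. Of all genes, 1749 were lower with quantile normalization, 1615 with loess, 4830 on the spike-in probes, 4459 at 1.5-fold and 671 at 3-fold.

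Regulators at least 2-fold higher numbered 0 with median scaling, without scaling, on the spike-in probes, with normexp and at a 3-fold threshold, and 2 with loess, the mean of a gene's probes or a 1.5-fold threshold. Of all 20246 genes, 1566 were higher with median scaling, 1765 without scaling, 931 on the spike-in probes, 1121 with normexp and 774 at 3-fold. With loess 2094 were higher, with the mean of a gene's probes 1774 and at 1.5-fold 3731. Lower were 2449 with median scaling, 4830 on the spike-in probes and 4459 at 1.5-fold. Regulators lower numbered 1 with median scaling and 7 on the spike-in probes or at a 1.5-fold threshold. Their median was -0.65 with median scaling, -0.43 with detected-probe scaling, -0.35 with quantile normalization, -0.32 with loess and -1.0 on the spike-in probes. In each of these cases the cause was not tested.

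Over all genes detected on both arrays, 1858 were at least 2-fold higher and 1981 lower. These counts were 931 and 4830 on the spike-in probes, 1121 and 1413 with normexp, 3731 and 4459 at 1.5-fold and 774 and 671 at 3-fold. All of these are out of 20246 genes. With a signal of at least 100 they were 1026 and 1433 of 14112 genes. Without a filter they were 4232 and 3807 of 43317 genes, which include genes not detected. Higher genes made up 48.4% of the calls, 39.0% with median scaling, 58.4% with detected-probe scaling and 16.2% on the spike-in probes.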
